A study of Mus musculus with 6 samples.

Results

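Chemokine receptors are the surface receptors that steer lymphocytes into, within and out of tissues, and 9 of them were followed here in regulatory T cells (Tregs), CD4 T cells whose task is to hold immune responses in check. The 9 genes, Ccr2, Ccr4, Ccr6, Ccr7, Ccr8, Cxcr3, Cxcr4, Cxcr5 and Cxcr6, were picked by symbol from a table of 23725 genes, and each matched 1 row. The cells were Tregs from lymph nodes of the strain C57Bl/6, taken after immunisation with MOG (myelin oligodendrocyte glycoprotein), a protein of the myelin sheath. 3 libraries came from MOG KO mice, which lack MOG in the whole animal, and 3 from WT mice, and mice of both genotypes received the immunisation. Each library was made from 500 cells. The labels do not say whether a replicate number stands for 1 mouse or a pool, nor give the age of the mice or how Tregs were sorted, so every p-value rests on the spread among 6 samples whose independence is not stated and may be partly technical.

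Chemokine receptors are coupled to inhibitory G proteins. When a chemokine binds, the G protein subunits come apart and drive the cytoskeleton, so that the cell moves toward the source. Desensitising kinases and arrestins then switch the receptor off. Naive-like Tregs are known to rely on CCR7 to enter and stay in lymph nodes, whereas Tregs that have met antigen tend to carry receptors for inflamed tissue such as CXCR3, CCR2, CCR4, CCR6, CCR8 and CXCR6, and follicular Tregs carry CXCR5.

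Gene counts totalled 3450623 to 4361315 in the MOG KO libraries and 2717969 to 4472549 in the WT libraries. Values are given as reads per 1000000 counted reads (RPM), for replicates 1, 2 and 3 in that order, and 10 RPM is the level from which a gene counts as present. Libraries were weakly correlated. Across the 7909 genes present anywhere, the correlation of log2(RPM + 1) was 0.285 to 0.296 between MOG KO libraries, 0.244 to 0.268 between WT libraries and 0.245 to 0.304 between genotypes. The targeted gene Mog had 0 counts in all 3 MOG KO libraries and 1, 0 and 0 counts in the WT libraries, so it does not check the genotype labels. Of 7 Treg markers 6 were present in all 6 libraries, and the exception was Foxp3, the lineage transcription factor, at 476, 444 and 326 RPM in MOG KO Tregs and 690.2, 400.0 and 8.22 RPM in WT Tregs. WT replicate 3 was also poorest in genes, with 2701 present where the other libraries had 3265 to 4440, and the values of Ccr2, Cxcr3, Cxcr6 and Ccr7 are given without it as well. In such bulk samples, fewer cells carrying a receptor and less RNA per cell cannot be told apart.

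Which receptors were read changed from library to library within both genotypes. Ccr2 and Cxcr3 were present in all 6 libraries, Ccr6 and Cxcr6 in 4, Ccr4 and Cxcr5 in 2, Ccr7 and Cxcr4 in 1, and Ccr8 in 0. Of the 54 values of the 9 genes in 6 libraries, 23 were at 100 RPM or more and 28 lay under 10 RPM, which left 3 between these levels. MOG KO libraries held 4, 3 and 6 of the receptors, and WT libraries 4, 6 and 3. Being present in all 6 libraries was the case for 17.2% of the 4088 genes tested.

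**Figure D1:**
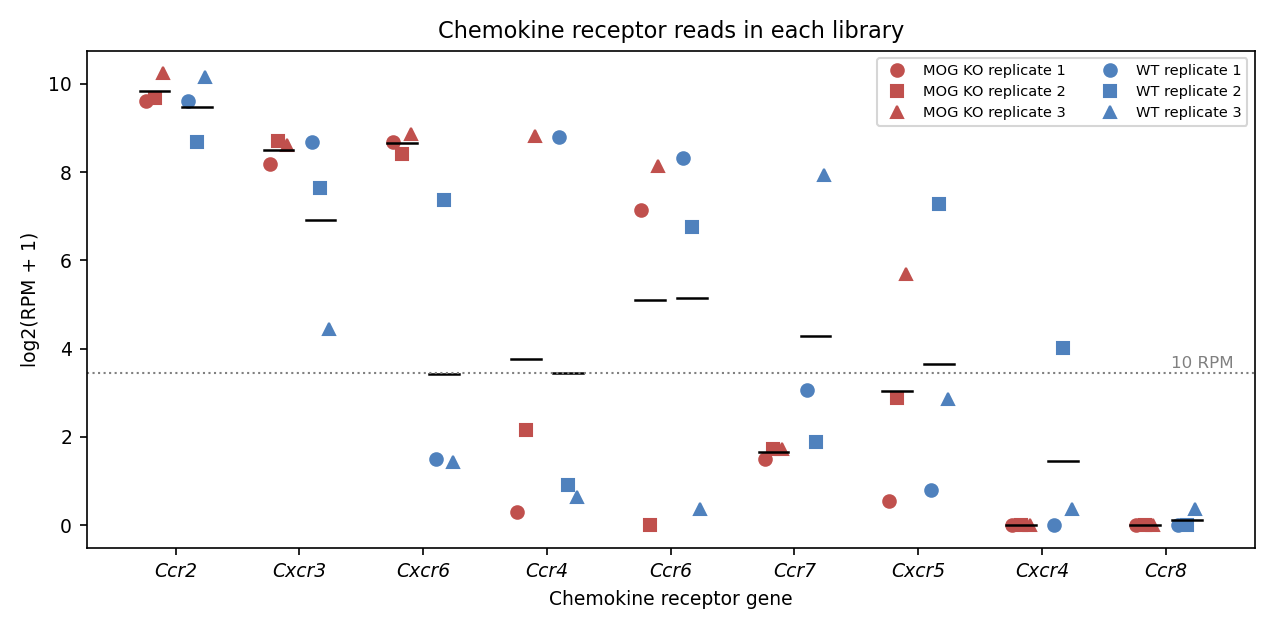
Reads of each chemokine receptor gene (x axis) in each library, as log2(RPM + 1) (y axis), with MOG KO libraries in red left of WT libraries in blue, 1 symbol per replicate number and black bars at the group means on this scale. Ccr2 lies high in all 6 libraries, Cxcr6 is high in 3 of 3 MOG KO and 1 of 3 WT libraries, and Ccr4, Ccr6 and Cxcr5 split within both genotypes.

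Across all genes, edgeR's quasi-likelihood test put 0 of 4088 genes (0%) past a Benjamini-Hochberg adjusted p of 0.05. 7 of the 9 receptors had enough counts to be tested, and Ccr8 and Cxcr4 did not. Among the 7, 0 passed, with an adjusted p of 0.9996 for each, and 0 had an unadjusted p under 0.05, where 5.11% of all tested genes did. limma-voom also put 0 of the 7 past the threshold. DESeq2 called 744 of the 4677 genes to which it gave an adjusted p (15.9%), and 0 of the 6 receptors that had one, with none given for Ccr4, Ccr7 and Ccr8. 4 of the 7 receptors had positive and 3 negative log2 fold changes (MOG KO minus WT), with a median of 0.07, beside 52.1% positive and a median of 0.06 over all tested genes. 2 of the 7 had groups that did not overlap in RPM, where 10.5% of all tested genes did the same. These were Cxcr6, higher in MOG KO as were 5.97% of tested genes, and Ccr7, lower in MOG KO as were 4.57%. The count of receptors was 3 without WT replicate 3, a library left out after the data were seen. Ccr2 then joined Cxcr6 and Ccr7 with MOG KO above WT, but its nearest libraries were at 780.4 and 777 RPM. On edgeR's own scaling the Ccr2 groups overlapped. Without that library, 9.96% of tested genes were higher and 9.91% lower in MOG KO with no overlap. A gene that passed the filter through 1 group only had to differ, and Ccr7, which passed through the WT libraries alone, was such a gene. These counts therefore describe the receptors and support nothing further.

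**Figure D2:**
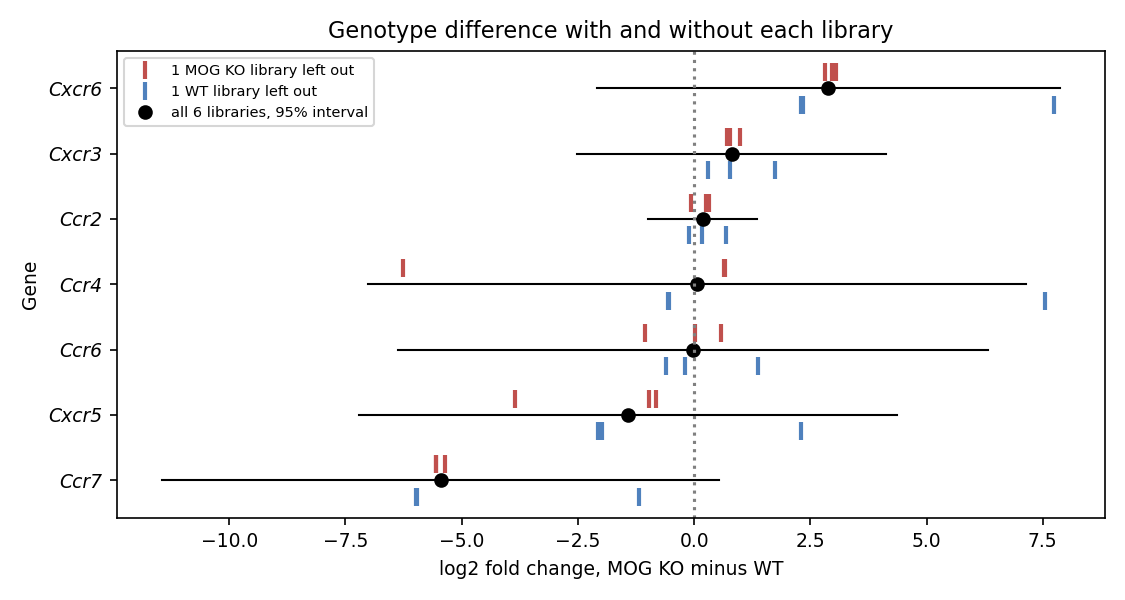
Log2 fold change of the 7 tested receptors (x axis, MOG KO minus WT), where black points and lines give edgeR's value and 95% interval from all 6 libraries and the ticks give the value with 1 MOG KO library (red, above) or 1 WT library (blue, below) left out. All 7 intervals include 0, and single libraries move Ccr4 from -6.27 to 7.56 and Cxcr6 from 2.3 to 7.74.

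Among the receptors for inflamed tissue, Ccr2, which binds CCL2 and is best known for bringing monocytes and effector T cells into inflamed sites, was the most evenly read. It had 780.4, 821 and 1208 RPM in MOG KO Tregs and 777, 412 and 1134 RPM in WT Tregs. The groups overlapped, and the lowest library was WT replicate 2. The log2 fold change was 0.18 ± 0.50 (SE, n = 3 in each genotype; 95% interval -0.98 to 1.35), and it was 0.68 without WT replicate 3, -0.12 without WT replicate 2 and -0.06 without MOG KO replicate 3. Its coefficient of variation over the 6 libraries was 0.335, lower than that of all but 5.43% of the tested genes, whose median was 1.11. Ccr2 made up 48.0%, 51.7% and 42.4% of the reads of the 9 receptors in MOG KO libraries and 39.7%, 39.1% and 80.6% in WT libraries. Because monocytes and other myeloid cells also express Ccr2, a list of 6 myeloid and dendritic cell markers was read beside it. Its summed level was 5.55 to 12.8 RPM in MOG KO libraries and 4.25 to 15.1 RPM in WT libraries, 0 of the 6 were present in any library, and the highest, Lyz2, reached 9.57 RPM. Siglech was at 0 counts throughout, Itgax reached 1.45 RPM, Csf1r 3.77 RPM, Cd14 1.84 RPM and Flt3 0.290 RPM.

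Ccr2 lies on chromosome 9 (GRCm38, 124101950 to 124113557, plus strand, Entrez 12772), among receptor genes of related sequence. How reads that match several places were counted is not given in the sources used here, so related receptor genes may share some reads.

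Cxcr3 binds the interferon-induced chemokines CXCL9 and CXCL10 and guides type 1 effector cells and the Tregs that restrain them. It had 289.8, 416 and 389 RPM in MOG KO Tregs and 407, 198 and 20.7 RPM in WT Tregs. All 3 MOG KO libraries lay within a narrow band, and the WT libraries reached from that band down to WT replicate 3, so the groups overlapped. Its log2 fold change was 0.81 ± 1.44 (95% interval -2.52 to 4.14), and 0.29 without WT replicate 3. The lowest Cxcr3 library, WT replicate 3, was also the one with the lowest Foxp3, Ctla4 (74.3 RPM) and Cd4 (169.5 RPM). Of the other Treg markers, Ikzf2 was highest there (1294 RPM), and Il2ra (708 RPM), Cd3e (273 RPM) and Tnfrsf18 (236 RPM) were not lowest. The part of these levels in the Cxcr3 value was not tested. Tbx21, which encodes T-bet, a factor known to drive Cxcr3, had 0.229 RPM in MOG KO replicate 2, 0.368 RPM in WT replicate 1 and 0 counts in the other 4 libraries.

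Cxcr6 binds CXCL16 and marks activated T cells that settle in tissues. It had 413, 338 and 468 RPM in MOG KO Tregs and 1.84, 164 and 1.70 RPM in WT Tregs. Every MOG KO library lay above every WT library, and WT replicate 2 was the WT library that held it. The means were 406 ± 65.0 RPM in MOG KO and 55.7 ± 93.5 RPM in WT (SD, n = 3 each). The exact two-sided permutation p was 0.1, the smallest that 3 against 3 samples can give. In edgeR the log2 fold change was 2.89 ± 2.14 (95% interval -2.09 to 7.87, edgeR adjusted p = 0.9996), which became 7.74 without WT replicate 2 and 2.33 without WT replicate 3. 7.27% of tested genes were, like Cxcr6, present in at least 2 more MOG KO than WT libraries. Cxcr6 (chromosome 9, 123806475 to 123811760, plus strand, Entrez 80901) lies inside Fyco1 (123789500 to 123851899), which is read from the minus strand, and the exons of the pair share 0 bases. Fyco1 had 6, 2269 and 0 counts in MOG KO libraries and 11, 2831 and 2137 counts in WT libraries. Of the libraries that held Cxcr6, MOG KO replicates 1 and 3 had next to no Fyco1 reads, while MOG KO replicate 2 and WT replicate 2 had many. Whether Fyco1 reads add to the Cxcr6 values was not tested.

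**Figure D3:**
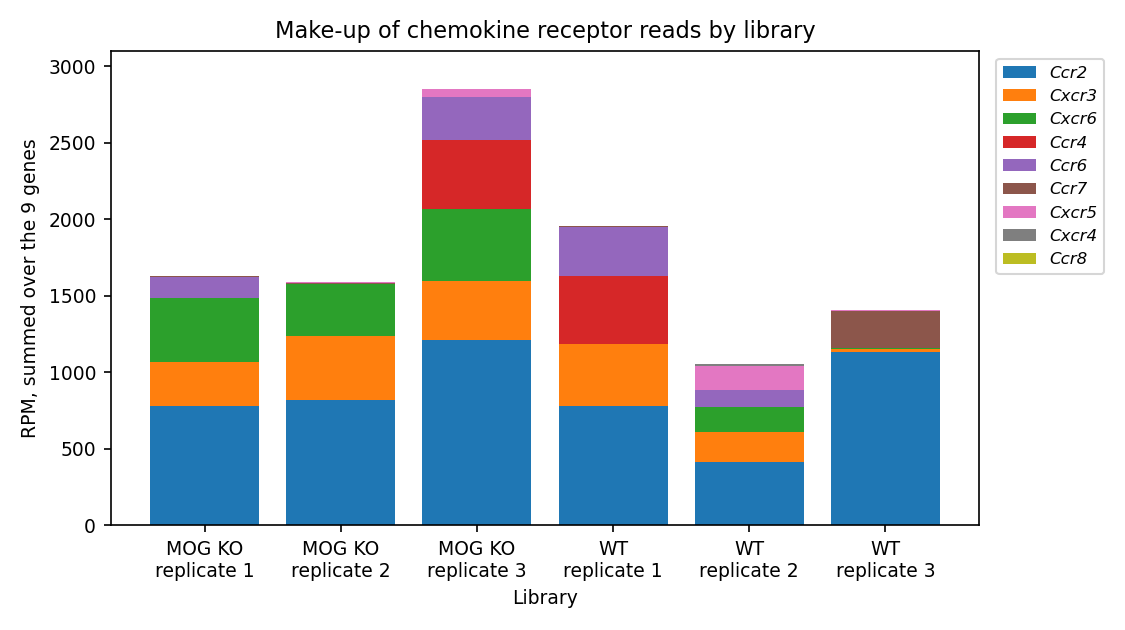
Stacked bars of the RPM of the 9 receptors (y axis, starting at 0) in each library (x axis), MOG KO libraries left of WT libraries, 1 colour per gene. Ccr2 is the largest block in all 6 bars, Cxcr6 adds a block in the 3 MOG KO libraries and WT replicate 2, and the blocks of Ccr4, Ccr6, Ccr7 and Cxcr5 change from library to library.

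Of the receptors tied to skin and mucosal surfaces, Ccr4 and Ccr6 switched between high and near 0 inside each genotype. Ccr4 binds CCL17 and CCL22, chemokines of dendritic cells and skin, and is a common Treg receptor. It had 0.231, 3.44 and 452 RPM in MOG KO Tregs and 441, 0.894 and 0.567 RPM in WT Tregs. The level was thus carried by MOG KO replicate 3 and WT replicate 1, which were close to each other. The log2 fold change of 0.07 ± 3.04 (95% interval -7.01 to 7.14) was -6.27 without MOG KO replicate 3 and 7.56 without WT replicate 1.

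Ccr6 binds CCL20 and is found on Th17 cells, B cells and a share of Tregs. It had 141, 0 and 279.7 RPM in MOG KO Tregs and 319, 108 and 0.283 RPM in WT Tregs. 1 library of each genotype had next to no reads, and the remaining 4 lay at 108 RPM or more. The 0 counts in MOG KO replicate 2 allow up to 0.688 RPM by counting error. For Ccr6 the log2 fold change was -0.02 ± 2.72 (95% interval -6.36 to 6.32), and it was 1.37 without WT replicate 1. Ccr8, a receptor of CCL1 that marks activated Tregs in tissues and tumours, had 0 counts in the MOG KO libraries and 0, 0 and 1 count in the WT libraries. A count of 0 allows up to 0.688 to 0.869 RPM in the MOG KO libraries and 0.671 to 1.10 RPM in WT replicates 1 and 2, so Ccr8 was not detectable at this depth.

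Among the receptors of lymphoid tissue, Ccr7 was nearly absent from all but a single library. Ccr7 binds CCL19 and CCL21 and brings naive and central T cells and mature dendritic cells into the T cell zone. It had 1.85, 2.29 and 2.32 RPM in MOG KO Tregs and 7.36, 2.68 and 243 RPM in WT Tregs, that is 8, 10 and 8 counts in MOG KO and 20, 12 and 857 counts in WT. The groups did not overlap, but 2 of the WT libraries exceeded the MOG KO range by only a few reads. Ccr7 passed the filter before testing through the WT libraries alone, so this lack of overlap was fixed in advance. Its log2 fold change was -5.45 ± 2.57 (95% interval -11.45 to 0.54, edgeR adjusted p = 0.9996), and it was -1.19 without WT replicate 3. Being present in a single library, a WT one, was the case for 0.881% of tested genes. That share is low by construction, because the filter before testing left out genes with enough counts in too few libraries, such as Cxcr4. It does not show how rare the pattern is. Klf2, a factor of quiescent T cells known to support lymph node homing, was present in all libraries at 222.1, 222.4 and 178 RPM in MOG KO Tregs and 155, 225 and 416 RPM in WT Tregs, with its highest value in the library that held Ccr7. Foxo1, a factor known to maintain Ccr7 expression, had 634, 3.67 and 804 RPM in MOG KO Tregs and 573, 593 and 166 RPM in WT Tregs. It was high in 4 libraries with almost no Ccr7 reads. Whether Klf2 or Foxo1 bears on the Ccr7 values was not tested.

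Cxcr5 binds CXCL13 and admits B cells, follicular helper T cells and follicular Tregs to B cell follicles. It had 0.462, 6.42 and 50.7 RPM in MOG KO Tregs and 0.736, 154 and 6.24 RPM in WT Tregs. Its reads came mainly from WT replicate 2 and MOG KO replicate 3, and the groups overlapped. The log2 fold change was -1.43 ± 2.48 (95% interval -7.22 to 4.36), and 2.3 without WT replicate 2. Bcl6, the factor of follicular cells, had 0 counts in all 6 libraries. Cxcr5 (chromosome 9, 44511787 to 44561877, minus strand, Entrez 12145) shares 110 exon bases with Bcl9l on the opposite strand. Bcl9l had 568, 137 and 0 counts in MOG KO libraries and 102, 0 and 768 counts in WT libraries. The libraries with most Cxcr5 reads had 0 counts of Bcl9l. Whether Bcl9l reads add to the Cxcr5 values was not tested.

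Since B cells express Cxcr5, Ccr6 and Ccr7, 5 B cell markers were read beside these receptors. The summed level was 0 to 129.8 RPM in MOG KO libraries and 2.21 to 206 RPM in WT libraries, and 2 of the 5 were present in any library. Cd79b had 0, 129.5 and 0.580 RPM in MOG KO Tregs and 0, 205 and 0 RPM in WT Tregs, and its highest library, WT replicate 2, was the highest for Cxcr5. Ms4a1, which encodes CD20, had 87.3 RPM in WT replicate 3, the library that held Ccr7, and at most 1.47 RPM elsewhere. Cd79a and Pax5 were at 0 counts in all 6 libraries. The part of B cells in these values was not tested beyond these levels. All 5 markers of CD8 T and NK cells, Cd8a among them, were at 0 counts. Of 4 stromal and endothelial markers, Pecam1 alone was present in any library, at 461, 25.2 and 47.2 RPM in MOG KO and 89.4, 24.4 and 1.98 RPM in WT, and T cells are known to express it too.

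Cxcr4 binds CXCL12 and retains cells in bone marrow and other niches. It had 0 counts in all 3 MOG KO libraries, which allows up to 0.693, 0.688 and 0.869 RPM, and 0, 68 and 1 counts in the WT libraries. WT replicate 2, at 15.2 RPM, was therefore the sole library with Cxcr4 above the floor of 3 counts. It was not tested in edgeR, and DESeq2 gave it an unadjusted p of 0.0448 and an adjusted p of 0.219, the smallest adjusted p of the 6 receptors that had one in that tool.

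To set the genes against each other, RPM was divided by the summed length of each gene's exons. On this scale of RPM per kilobase, the mean level in MOG KO Tregs ran from Cxcr3 (211 ± 38.4) and Cxcr6 (210.5 ± 33.7) through Ccr2 (139 ± 34.9), Ccr6 (60.5 ± 60.3) and Ccr4 (49.1 ± 84.0) to Cxcr5 (5.76 ± 8.24) and Ccr7 (1.09 ± 0.134; SD, n = 3). In WT Tregs it ran from Cxcr3 (121 ± 112) through Ccr2 (114 ± 53.4), Ccr6 (61.4 ± 70.0), Ccr4 (47.7 ± 82.1), Ccr7 (42.6 ± 69.4), Cxcr6 (28.9 ± 48.4) and Cxcr5 (16.1 ± 26.1) to Cxcr4 (2.86 ± 4.81) and Ccr8 (0.0804 ± 0.139; SD, n = 3). The ranges of every pair of neighbours in both orders overlapped, except that Ccr7 lay above Ccr8 in MOG KO, where Ccr8 and Cxcr4 were at 0. Ccr2, which had the most reads, has 6.76 kb of annotated exons against 1.73 kb for Cxcr3 and 1.93 kb for Cxcr6, and the length in use in these cells is not known. The 9 receptors together had 1627, 1587 and 2850 RPM in MOG KO libraries, shown in the stacked bars, and 1954, 1054 and 1406 RPM in WT libraries, and these sums overlapped.

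Neighbouring receptor genes were read in different libraries. 5 of the 9 receptor genes lie on chromosome 9, and Cxcr6 and Ccr2 belong there to a cluster that also holds Ccr9, Ccr1 and Ccr3, genes named here for their position after their values were seen. Ccr1, a receptor of CCL3 and CCL5, had 276 RPM in MOG KO replicate 1 and at most 0.580 RPM elsewhere. Ccr3, the eotaxin receptor, had 218 RPM in MOG KO replicate 2 and 228 RPM in WT replicate 1, and at most 0.580 RPM elsewhere. Ccr9, the receptor that directs T cells to the gut, had 74.0 RPM in WT replicate 2 and at most 0.290 RPM elsewhere. Thus each of these genes was read in its own library or libraries, while Ccr2 beside them was read in all 6. The other members lie on chromosome 9 (Ccr4, Entrez 12773, 114490316 to 114504916, minus strand; Ccr8, Entrez 12776, 120092114 to 120094906, plus strand), chromosome 17 (Ccr6, Entrez 12458, 8236043 to 8257141, plus strand), chromosome 11 (Ccr7, Entrez 12775, 99144196 to 99155077, minus strand), chromosome X (Cxcr3, Entrez 12766, 101731535 to 101734269, minus strand) and chromosome 1 (Cxcr4, Entrez 12767, 128588199 to 128592293, minus strand), all protein-coding.

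The genes whose pattern over the 6 libraries was most like that of a receptor were sought among the tested genes, 3971 for each receptor, by the correlation of log2(RPM + 1). Cxcr6 was most like Elavl1, which encodes an RNA-binding protein, with r = 0.999, and 88 genes had r above 0.9. Cxcr3 was most like the glucose transporter gene Slc2a3 (r = 0.999, 176 genes above 0.9), and Ccr6 most like the prefoldin gene Vbp1 (r = 0.996, 104 genes). Ccr4 was most like the adaptor gene Shc1 (r = 0.992, 31 genes), Ccr2 most like Gramd1a, a sterol transporter gene (r = 0.978, 23 genes), and Cxcr5 most like the co-chaperone gene Dnajb6 (r = 0.958, 12 genes). These values describe 6 points that fall mostly into high and near-0 levels, a pattern that many genes share in the same libraries.

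The rest of the chemokine system held 0 genes past the threshold. Of 14 other chemokine receptors, typical and atypical, 8 had 0 counts in all libraries, 5 were present in at least 1, and 0 passed. Of 19 chemokine genes that encode ligands, 18 were in the table, 9 of these had 0 counts, and 2 were present in any library. The 1 tested ligand, Ccl5, a product of activated T cells, had 0, 71.3 and 141 RPM in MOG KO Tregs and 90.1, 62.4 and 0 RPM in WT Tregs (0.52 ± 2.80). Cxcl10, a ligand of CXCR3, had 33.1 RPM in WT replicate 1 and 0 counts elsewhere.

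The signalling machinery behind the receptors was read in more of the libraries. All 22 genes of G protein and migration signalling were present in at least 1 library. In all 6 libraries 12 of them were present, where 2 of the 9 receptors and 17.2% of all tested genes were. The lists were not matched for level of expression. Of 19 tested, 8 had positive and 11 negative values (median -0.14). Gnai2, the inhibitory G protein subunit that lymphocyte chemokine receptors use, had 444, 451 and 430.1 RPM in MOG KO Tregs and 449, 404 and 543 RPM in WT Tregs. 1 of the 19 had groups that did not overlap, where 10.5% of all tested genes did the same. This was Gnb1, a beta subunit of G proteins, higher in MOG KO as were 5.97% of tested genes. Gnb1 had 523, 404 and 489 RPM in MOG KO and 268, 309 and 328 RPM in WT (0.57 ± 0.86, 95% interval -1.40 to 2.55). Gnai2 and Gnb1 were named after their values were seen. By the rule for naming, Pik3r5, a regulatory subunit of PI3K gamma, had 0.924, 39.0 and 0.869 RPM in MOG KO Tregs and 709, 0.894 and 538 RPM in WT Tregs (-5.00 ± 2.77, edgeR adjusted p = 0.9996). Vav1, an activator of Rac, had 615, 139.9 and 238 RPM in MOG KO and 389, 451 and 674 RPM in WT (-0.72 ± 0.89).

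Of 14 genes of receptor desensitisation, 2 were present in all 6 libraries, and of 9 tested, 3 were positive and 6 negative (median -0.37). Adrbk1, the kinase that phosphorylates activated receptors, had 398, 745 and 403 RPM in MOG KO Tregs and 655, 347 and 882 RPM in WT Tregs (-0.37 ± 0.63). Rgs14, which speeds the shut-off of inhibitory G proteins, had 3.00, 0.688 and 215 RPM in MOG KO and 274, 411 and 0.567 RPM in WT (-1.60 ± 2.67). Of 9 transcription factors tied to these receptors, 5 were tested, 3 with positive and 2 with negative values (median 0.09). Irf4, a factor of effector Tregs, had 382, 768 and 2.03 RPM in MOG KO and 2.58, 587 and 1.98 RPM in WT (0.99 ± 2.45), and Klf2 had a log2 fold change of -0.46 ± 1.41. Gata3, named after its values were seen, was present in every library at 245, 339.8 and 495 RPM in MOG KO Tregs and 319, 337 and 564 RPM in WT Tregs. Ccr4, a receptor that GATA3-expressing helper cells often carry, was near 0 in 4 of these libraries.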

How the data were processed

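Of the 2 deposited tables, the first gives raw counts per gene as whole numbers, and the second gives RPM, the same counts scaled by the authors to a sum of 1000000 per library; the largest difference between that table and the rescaled counts was 4.5e-11 RPM. Per the submitters' processing notes, STAR 2.3.1, R 3.2.2 and genome build mm10 were used; the counting function, gene models, strand setting and treatment of reads with several matches are not stated in those notes or labels. Per the labels' protocols, libraries were made from 500 cells by 15 PCR cycles and read as single reads of 100 bases. There are no molecular identifiers, so floors, set at 3 counts where a library has 0, cover counting error only.

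Counts of all genes were tested with edgeR 4.0.16 (R 4.3.3): filterByExpr, TMM scaling, robust quasi-likelihood fit, genotype alone, Benjamini-Hochberg adjustment over 4088 genes. The SE is the absolute log2 fold change over the square root of F, and intervals use edgeR's moderated degrees of freedom. limma 3.58.1 and DESeq2 1.42.0 were alternatives. On simulated counts for MOG KO against WT with the spread of these libraries (3815 genes), edgeR recovered 0 of 100 genes changed 4-fold and 32 of 100 changed 64-fold, with 3 false calls; at low spread (4085 genes) it recovered 100 and 100, with 11. Positions and exon lengths are from GENCODE M21 (GRCm38, the assembly of mm10), matched by symbol.

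The members and lists were chosen with earlier results of these data known. All 9 members are named; of each other list, the 2 tested genes of smallest unadjusted p where 0 passed, and of each marker list the gene of highest summed RPM; for likeness, the gene of highest correlation, for receptors present in at least 2 libraries. Other genes named were singled out after their values were seen. Lists carry no set test. A few of the genes so chosen are left out of the text.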

Additional observations from a re-analysis of the deposited data

How the results depend on the processing

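No receptor passed an adjusted p of 0.05 under any alternative that gave it an adjusted p: DESeq2 size factors in edgeR, no filter, 50 counts in 3 libraries (which left out Ccr4, Ccr7 and Cxcr5), DESeq2, limma-voom, limma-trend on log2(RPM + 1) or log2(RPM + 10), the replicate block, and leaving out each library. The count of all genes past the threshold stayed at 0 except in DESeq2, with 744 (271 higher and 473 lower in MOG KO). DESeq2 gave no adjusted p to Ccr4, Ccr7 and Ccr8. Cxcr6, Cxcr3 and Ccr7 kept their direction in every alternative run. The value of Ccr2 was -0.071 in DESeq2 and that of Ccr4 was -0.098 with no filter. Ccr6 was 0.082 with DESeq2 size factors, 0.17 in DESeq2 and 0.046 with limma-trend on log2(RPM + 10). Leaving out 1 library gave -0.12 to 0.68 for Ccr2, -6.27 to 7.56 for Ccr4, -1.05 to 1.37 for Ccr6, -5.98 to -1.19 for Ccr7, 0.29 to 1.74 for Cxcr3, -3.84 to 2.3 for Cxcr5 and 2.3 to 7.74 for Cxcr6, and 0 calls each time. The cause of these changes was not tested.

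Requiring that the lower group lie under 10 RPM and the higher at 10 RPM or more in every library left 0 of the 2 receptors whose groups did not overlap, and on TMM-scaled CPM the same 2, Cxcr6 and Ccr7, did not overlap. Without WT replicate 3, an alternative chosen after seeing the data, the count was 3, with Ccr2 added. On TMM-scaled CPM Ccr2 overlapped among these libraries too, with MOG KO replicate 1 at 873 and WT replicate 1 at 916. With presence set at 3 RPM, MOG KO replicate 2 held 5 receptors in place of 3. Deviations from the group means had correlations of -0.022, -0.0022 and -0.018 between same-numbered libraries. Between differently numbered libraries they were -0.016 to 0.037. With libraries of this spread, values so near 0 cannot tell whether the numbers pair the samples, and the labels do not say. With the replicate number as a block, 0 genes and 0 receptors passed, Cxcr6 was 6.28 and Ccr7 -2.66. With 3 libraries per group and this spread, differences well beyond 4-fold could go uncalled, as the simulated counts show.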
